A study of Saccharomyces cerevisiae with 16 samples.

Results

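The 8 genes described here encode the pumps, the exchanger, the channels and the regulators that move calcium across the membranes of budding yeast, *Saccharomyces cerevisiae*. They were chosen by name for their known roles, with earlier results of these data known: *PMC1* (YGL006W), *PMR1* (YGL167C), *VCX1* (YDL128W), *CCH1* (YGR217W), *MID1* (YNL291C), *YVC1* (YOR087W), *ECM7* (YLR443W) and *RCH1* (YMR034C). They are 8 of the 7126 features in the count table, and all 8 passed the filter on low counts that left 6206 genes for testing.

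RNA-seq was performed on 16 libraries of strain YJB622, a MATa haploid of the BY4741 background with the alleles crz1Δ::KanMx, hog1Δ::LEU2, Hcm1-3HA-HIS3, ura3Δ0, leu2Δ0, his3Δ0 and met15Δ0. Every group therefore lacked *CRZ1*, which encodes the transcription factor activated by calcineurin, and *HOG1*, which encodes a stress-activated kinase, so that all of the values below belong to 1 double mutant strain and no strain with either gene intact is analysed here. Cultures were treated for 15 min with FK506 at 1 μg/ml, an inhibitor of the calcium-activated phosphatase calcineurin, or with ET buffer alone, and then received 200 mM CaCl2. The 8 groups were FK506 at 0, 10, 30 and 60 min after CaCl2 and ET at 0, 10, 30 and 60 min, with 2 replicates in each. The question was how the transcripts of these genes changed after calcium, and how that change differed when calcineurin was inhibited.

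Yeast keeps cytosolic calcium low by pumping it into the vacuole and the Golgi. Pmc1 is the calcium ATPase of the vacuole and Vcx1 the vacuolar calcium and proton exchanger, while Pmr1 is the calcium and manganese ATPase of the Golgi. Calcium enters through a plasma membrane channel made of the pore subunit Cch1 and the regulatory subunit Mid1, with Ecm7 as a further regulator, and it is released from the vacuole through Yvc1, a channel of the TRP family. Rch1 is a plasma membrane protein that restrains calcium uptake. In wild type cells, calcineurin dephosphorylates Crz1, which then enters the nucleus and raises transcription of *PMC1* among other genes.

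The genes lie on 6 chromosomes, 3 of them on chromosome VII, and each is a single uninterrupted coding stretch. In the R64 build, *PMC1* spans chrVII:485921-489442 on the plus strand, *PMR1* chrVII:187616-190468 on the minus strand and *CCH1* chrVII:924696-930815 on the plus strand. *VCX1* spans chrIV:232652-233887 on the plus strand, *MID1* chrXIV:84169-85815 on the minus strand and *YVC1* chrXV:487707-489734 on the plus strand. *ECM7* spans chrXII:1022625-1023971 on the plus strand and *RCH1* chrXIII:339418-340722 on the minus strand. No stretch of 50 bases from any of them occurs elsewhere in the genome, so that reads of this length had no second exact match. Matches with mismatches were not searched for. Only *PMR1* overlaps another annotated gene, *HUR1*, over 181 bases or 6.34% of its coding length, and its values are uncertain to that extent because the strand setting of the counting is not given in the sources used here.

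The promoter windows of 4 genes, chosen after their values were seen, are shown because these genes moved in opposite directions after calcium, *PMC1* and *RCH1* upward and *CCH1* and *MID1*, the subunits of the channel, downward. Each window runs from 250 bases before the start codon through the first 50 bases of the coding sequence, read 5′ to 3′ on the strand of the gene from the RefSeq genome, build R64. Capitals mark matches on either strand to AGGGG, the stress response element that Msn2 and Msn4 recognise, and to GNGGCTCA or GNGGCGCA, forms of the calcineurin-dependent response element that Crz1 recognises.
PMC1, chrVII:485671-485970, plus strand: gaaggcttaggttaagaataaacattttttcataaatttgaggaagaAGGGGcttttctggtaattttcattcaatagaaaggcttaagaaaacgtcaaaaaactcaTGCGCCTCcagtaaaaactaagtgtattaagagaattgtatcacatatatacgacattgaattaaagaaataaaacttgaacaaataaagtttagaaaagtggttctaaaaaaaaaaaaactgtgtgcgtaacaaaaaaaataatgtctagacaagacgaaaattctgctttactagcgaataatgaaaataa
RCH1, chrXIII:340673-340972, minus strand: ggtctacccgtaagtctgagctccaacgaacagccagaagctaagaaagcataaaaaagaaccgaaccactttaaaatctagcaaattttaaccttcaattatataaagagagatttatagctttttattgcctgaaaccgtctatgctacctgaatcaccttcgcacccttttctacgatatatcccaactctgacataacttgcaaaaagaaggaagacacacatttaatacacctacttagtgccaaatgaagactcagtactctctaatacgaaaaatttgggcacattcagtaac
CCH1, chrVII:924446-924745, plus strand: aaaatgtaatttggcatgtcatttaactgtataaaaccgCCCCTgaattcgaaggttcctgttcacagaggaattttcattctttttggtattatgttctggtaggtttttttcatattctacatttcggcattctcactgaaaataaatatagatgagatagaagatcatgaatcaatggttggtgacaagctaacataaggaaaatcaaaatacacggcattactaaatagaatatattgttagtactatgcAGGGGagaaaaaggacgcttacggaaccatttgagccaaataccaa
MID1, chrXIV:85766-86065, minus strand: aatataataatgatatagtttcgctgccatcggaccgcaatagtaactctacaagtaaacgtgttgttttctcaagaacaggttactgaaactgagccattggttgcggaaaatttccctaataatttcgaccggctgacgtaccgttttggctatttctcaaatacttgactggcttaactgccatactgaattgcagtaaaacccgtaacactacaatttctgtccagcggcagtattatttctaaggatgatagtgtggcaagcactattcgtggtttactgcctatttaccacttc

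The *PMC1* window holds 1 match to AGGGG and, on the strand opposite to the gene, 1 match to GNGGCGCA from 143 to 136 bases before the start codon, and the matches do not overlap. *CCH1* has 2 matches to AGGGG, 1 of them just inside the coding sequence, and *ECM7*, not shown, has 1. The windows of *RCH1*, *MID1*, *PMR1*, *VCX1* and *YVC1* hold neither motif. Across 6020 windows of the same length, 21.6% held AGGGG and 1.89% held a calcineurin-dependent response element, so that a match to AGGGG is common and describes these letters only.

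Library totals ranged from 11221758 to 11970166 counts, and counts of the 8 genes ranged from 128 for *RCH1* to 4850 for *PMC1*. No count was recorded for *HOG1*, *URA3* or *MET17*, and *CRZ1* had 2 counts over all libraries, as the genotype requires. Summed MATa markers were at 1940 to 3060 CPM and summed MATα markers at 38.0 to 56.9 CPM, with neither list at 0. CPM, the read count of a gene relative to the size of its library, is given below after scaling by TMM factors, which set the bulk of the genes level between libraries. The signal recognition particle RNA, SCR1, took between 4.03 and 8.67% of the counts, and scaling by raw totals instead of TMM moved the median gene upward by 0.20 log2 at 30 min and 0.12 log2 at 60 min in FK506, and by 0.20 log2 at 30 min and 0.24 log2 at 60 min in ET, so that the median difference in change at 60 min moved by −0.11. Changes are therefore given relative to the bulk of the genes. In bulk RNA, fewer cells that carry a transcript and less of it per cell cannot be told apart.

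The vacuolar pump gene and the gene of the uptake restrainer rose after calcium while genes of the plasma membrane channel and the Golgi pump gene fell. By 60 min in FK506 1 of the 8 genes still passed the test against 0 min, beside 13.1% of all tested genes higher and 15.7% lower. In ET 7 of the 8 genes did, beside 33.6% higher and 34.7% lower. In FK506, *PMC1* and *RCH1* rose at 10 min, and *PMR1*, *CCH1*, *MID1* and *ECM7* fell. At 30 min in FK506, *PMC1* was still higher than at 0 min and the same 4 genes were still lower. At 60 min in FK506, only *PMR1* differed from 0 min by the limma test. In ET, *PMC1* and *RCH1* were higher and the 4 genes lower at each of the 3 times, and *VCX1* was higher at 30 and 60 min.

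These counts have to be read against the many genes that changed. In FK506 at 10 min, 2 of the 8 genes were higher, with 24.4% of all tested genes higher, and 4 were lower, with 30.2% lower. At 30 min in FK506 1 gene was higher and 4 were lower, against backgrounds of 24.5% and 27.5%, and at 60 min none was higher and 1 was lower, against 13.1% and 15.7%. At 60 min in FK506 0 genes were higher also at an unadjusted p under 0.05 in limma and at an adjusted p under 0.05 in edgeR and DESeq2. In ET at 10 min 2 genes were higher and 4 lower, against 26.6% and 31.8% of tested genes. At 30 min in ET 3 were higher and 4 lower, against 33.1% and 35.3%, and at 60 min again 3 and 4, against 33.6% and 34.7%. These splits depend on the scaling: with raw totals 4 genes were higher and 0 lower in FK506 at 30 min (*PMC1*, *VCX1*, *YVC1* and *RCH1*), and 1 was higher and 0 lower in FK506 at 60 min (*CCH1*). In ET raw totals gave 4 higher and 2 lower at 30 min, and 4 higher and 0 lower at 60 min, with the same 4 genes on the higher side as in FK506 at 30 min. The median log2 change of the 8 genes was 0.02 in FK506 at 60 min, with −0.01 for all tested genes, and −0.17 in ET at 60 min, with 0.01 for all tested genes.

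**Figure D1:**
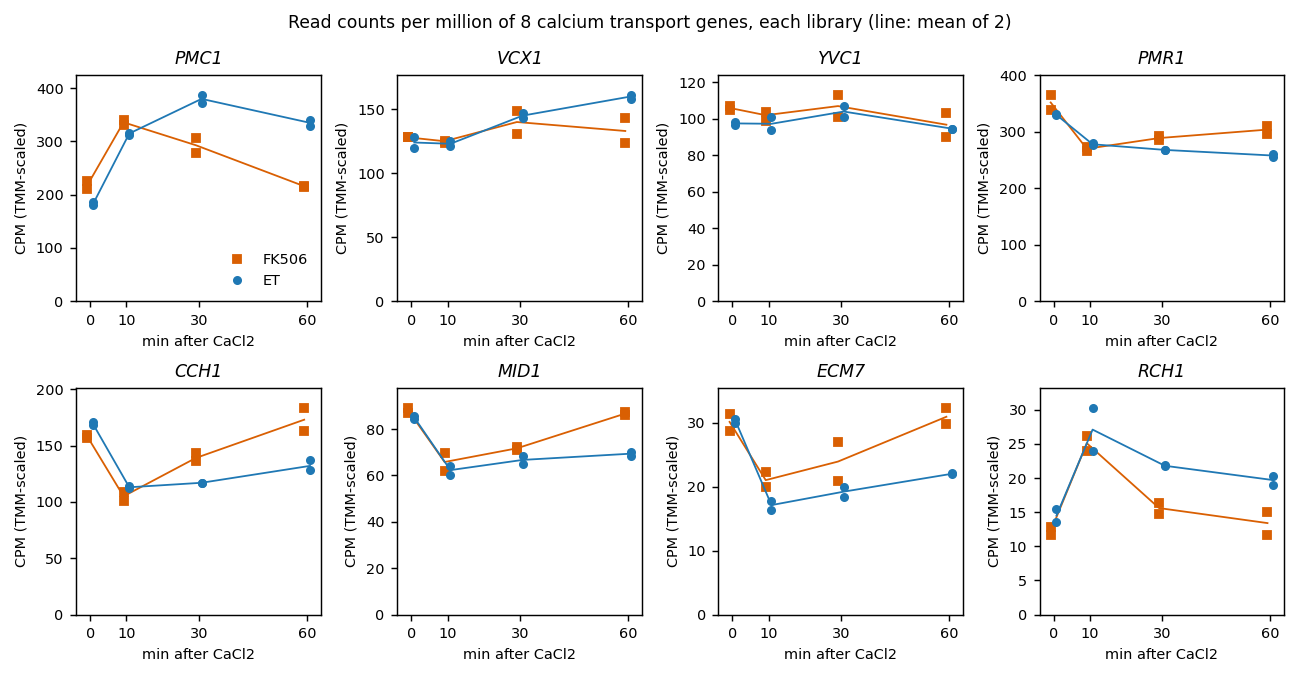
TMM-scaled CPM (vertical axes, each starting at 0) of the 8 genes against min after CaCl2, with FK506 as orange squares and ET as blue circles, 1 point per library and lines through the mean of 2. By 60 min the FK506 points of *PMC1* (215 and 217 CPM) lie far below those of ET (341 and 329 CPM), while those of *CCH1* (163 and 183 CPM) lie above those of ET (128 and 137 CPM).

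*PMC1*, the vacuolar calcium ATPase gene, had the largest difference between the treatments of the 8 genes. In FK506 *PMC1* had 210 and 225 CPM at 0 min, 331 and 340 CPM at 10 min, 307 and 278 CPM at 30 min, and 215 and 217 CPM at 60 min. In ET *PMC1* had 180 and 186 CPM at 0 min, 316 and 313 CPM at 10 min, 373 and 387 CPM at 30 min, and 341 and 329 CPM at 60 min. The FK506 libraries were above ET libraries at 0 and 10 min and below them at 30 and 60 min, with no overlap at any of these times. The log2 change from 0 min in FK506 was 0.63 at 10 min, 0.43 at 30 min and −0.01 at 60 min, the last with a 95% interval of −0.14 to 0.12 and an adjusted p of 0.91. In ET the log2 change was 0.78 at 10 min, 1.05 at 30 min (SE 0.06, 2.08-fold, limma adjusted p = 4.7e-11) and 0.87 at 60 min.

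The change of *PMC1* in FK506 was lower than that in ET by a log2 difference of −0.63 at 30 min (SE 0.08, limma adjusted p = 4.6e-05) and of −0.88 at 60 min (SE 0.08, limma adjusted p = 1.3e-07). With FK506 and ET time courses matched by replicate number, both replicates gave −0.88 at 60 min, and they gave −0.50 and −0.75 at 30 min. The sample titles do not say that courses of the same number were run as a pair. The differences at 30 and 60 min each passed the test in all 26 alternative settings. Their values ran from −0.70 to −0.57 at 30 min and from −0.99 to −0.83 at 60 min. At 10 min the difference was −0.16 (95% interval −0.33 to 0.02, adjusted p = 0.76). Before calcium, *PMC1* was higher in FK506 than in ET by 0.25 log2 (limma adjusted p = 0.041), and it was the 1 of 8 genes called there, with 1.56% of all tested genes called. That call was lost in edgeR (adjusted p = 0.056), in DESeq2 (0.057) and without the replicate block (0.086). It was also lost without the correlation within a time course and without the filter on low counts. Leaving out any 1 of the 10 libraries of FK506 at 0 and 10 min and ET at 0, 10 and 30 min lost it too. In all, it was lost in 15 of 25 alternatives, with values from 0.20 to 0.30.

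*VCX1*, the vacuolar exchanger gene, moved less. In FK506 *VCX1* had 128 and 128 CPM at 0 min, 125 and 124 CPM at 10 min, 149 and 131 CPM at 30 min, and 143 and 124 CPM at 60 min. In ET *VCX1* had 120 and 128 CPM at 0 min, 125 and 121 CPM at 10 min, 143 and 147 CPM at 30 min, and 161 and 158 CPM at 60 min. The FK506 and ET libraries lay apart only at 60 min, where both FK506 libraries were lower. In FK506 no change was called, with a log2 change of 0.12 at 30 min and 0.05 at 60 min (95% interval −0.11 to 0.21), but at 30 min it was called with raw totals (0.32) and without FK506 30 min replicate 2 (0.24). In ET *VCX1* rose by 0.23 log2 at 30 min (limma adjusted p = 0.013) and 0.36 log2 at 60 min (limma adjusted p = 0.00032), and the call at 30 min was lost without ET 0 min replicate 1 or ET 30 min replicate 2, with values from 0.13 to 0.34 over the leave-outs. At 60 min the change in FK506 lay below that in ET by −0.31 (SE 0.11, limma adjusted p = 0.02), a call lost without ET 0 min replicate 1, ET 60 min replicate 2, FK506 0 min replicate 2 or FK506 60 min replicate 2, with values from −0.42 to −0.22.

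*PMR1*, the Golgi calcium and manganese ATPase gene, was lower at every time after calcium in both treatments. In FK506 *PMR1* had 338 and 365 CPM at 0 min, 273 and 266 CPM at 10 min, 292 and 285 CPM at 30 min, and 310 and 297 CPM at 60 min. In ET *PMR1* had 329 and 331 CPM at 0 min, 280 and 277 CPM at 10 min, 268 and 267 CPM at 30 min, and 261 and 256 CPM at 60 min. The FK506 libraries lay above the ET libraries at 0 min, before calcium, and again at 30 and 60 min, and below them at 10 min, without overlap. In FK506 *PMR1* fell by 0.38 log2 at 10 min, 0.28 log2 at 30 min and 0.21 log2 at 60 min (limma adjusted p = 0.0057), and the last call was lost without FK506 0 min replicate 2, where the value was −0.14. With raw totals the values of −0.08 at 30 min and −0.09 at 60 min were not called. In ET it fell by 0.25, 0.30 and 0.35 log2 at 10, 30 and 60 min, and with raw totals the values of −0.10 at 30 min and −0.12 at 60 min were not called. The difference in change was not called at any time, with 0.14 at 60 min (95% interval −0.01 to 0.30, adjusted p = 0.12), or 0.21 and called without FK506 0 min replicate 2. *HUR1*, the gene that overlaps it, had 223 to 319 counts per library against 2935 to 3888 for *PMR1*.

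*CCH1*, which encodes the pore of the plasma membrane channel, fell in both treatments at 10 min and was higher again at 60 min in FK506. In FK506 *CCH1* had 157 and 159 CPM at 0 min, 109 and 101 CPM at 10 min, 136 and 143 CPM at 30 min, and 163 and 183 CPM at 60 min. In ET *CCH1* had 168 and 171 CPM at 0 min, 114 and 112 CPM at 10 min, 117 and 117 CPM at 30 min, and 128 and 137 CPM at 60 min. The FK506 libraries were below ET libraries at 0 and 10 min and above them at 30 and 60 min. In FK506 *CCH1* fell by 0.59 log2 at 10 min (limma adjusted p = 9.6e-07) and by 0.18 log2 at 30 min (limma adjusted p = 0.023), and it was 0.13 at 60 min (adjusted p = 0.13), or 0.25 and called with raw totals. The call at 30 min was lost in DESeq2 and without any of 6 libraries, namely both replicates of FK506 0 min, FK506 30 min and ET 30 min, and the value was 0.02 with raw totals. In ET *CCH1* fell by 0.58, 0.53 and 0.36 log2 at 10, 30 and 60 min, and with raw totals the value at 60 min was −0.12 and not called.

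The difference in change of *CCH1* was −0.01 at 10 min (95% interval −0.20 to 0.19), 0.35 at 30 min (SE 0.09, limma adjusted p = 0.0069) and 0.49 at 60 min (SE 0.09, limma adjusted p = 0.00018). Both of the later differences passed the test in all 26 alternatives, with values from 0.31 to 0.37 at 30 min and from 0.37 to 0.55 at 60 min.

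*MID1*, which encodes the regulatory subunit of the same channel, also fell in both treatments, and its FK506 libraries at 60 min were near those at 0 min. In FK506 *MID1* had 88.9 and 86.9 CPM at 0 min, 61.8 and 69.8 CPM at 10 min, 71.0 and 72.4 CPM at 30 min, and 86.1 and 87.4 CPM at 60 min. In ET *MID1* had 85.6 and 84.4 CPM at 0 min, 64.2 and 60.4 CPM at 10 min, 65.0 and 68.4 CPM at 30 min, and 70.2 and 68.5 CPM at 60 min. The libraries of the treatments overlapped at 10 min, and the FK506 libraries stood well above the ET libraries at 60 min. In FK506 *MID1* fell by 0.42 log2 at 10 min and 0.29 log2 at 30 min and was at −0.02 at 60 min (95% interval −0.16 to 0.13). In ET it fell by 0.45, 0.35 and 0.29 log2 at 10, 30 and 60 min, and with raw totals the values of −0.15 at 30 min and −0.06 at 60 min were not called, nor was that of −0.09 at 30 min in FK506. The difference in change was 0.28 at 60 min (SE 0.10, limma adjusted p = 0.027). It was lost in DESeq2 (adjusted p = 0.10), with raw totals (0.19, the highest over all 26 alternatives, with 0.019 the lowest) and in 7 of the leave-outs, those of ET 0 min replicate 1, ET 60 min replicate 2, both ET 30 min replicates and replicate 2 of FK506 at 0, 30 and 60 min, with values from 0.22 to 0.31.

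*ECM7*, which encodes a further regulator of this channel, had the fewest counts of the genes that fell, with 188 to 384 per library. In FK506 *ECM7* had 28.7 and 31.4 CPM at 0 min, 22.2 and 19.9 CPM at 10 min, 20.9 and 26.9 CPM at 30 min, and 32.2 and 29.7 CPM at 60 min. In ET *ECM7* had 30.0 and 30.6 CPM at 0 min, 17.8 and 16.4 CPM at 10 min, 20.0 and 18.4 CPM at 30 min, and 21.9 and 22.1 CPM at 60 min. The libraries overlapped at 0 min, and those of FK506 were higher at each later time. In FK506 *ECM7* fell by 0.51 log2 at 10 min and by 0.34 log2 at 30 min (limma adjusted p = 0.027) and was at 0.04 at 60 min, and the call at 30 min was lost in DESeq2, with raw totals (−0.13) and without FK506 30 min replicate 1 or FK506 0 min replicate 2, with values from −0.51 to −0.14. In ET it fell by 0.82, 0.66 and 0.46 log2 at 10, 30 and 60 min, and with raw totals the value at 60 min was −0.23 and not called. The difference in change was 0.32 at 30 min (adjusted p = 0.18), or 0.52 and called without FK506 30 min replicate 1. It was 0.50 at 60 min (SE 0.17, limma adjusted p = 0.018), and it was lost in DESeq2 (adjusted p = 0.052), with raw totals (0.064) and without ET 0 min replicate 1, FK506 0 min replicate 1 or FK506 60 min replicate 1, within a range of 0.0071 to 0.074 over all alternatives.

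*YVC1*, the vacuolar release channel gene, was the 1 gene of the 8 with no call in any of the comparisons as fitted with limma and TMM. In FK506 *YVC1* had 105 and 107 CPM at 0 min, 99.0 and 104 CPM at 10 min, 113 and 101 CPM at 30 min, and 103 and 90.2 CPM at 60 min. In ET *YVC1* had 98.4 and 96.6 CPM at 0 min, 94.0 and 101 CPM at 10 min, 107 and 101 CPM at 30 min, and 94.4 and 94.7 CPM at 60 min. The treatments overlapped at 10, 30 and 60 min, and at 0 min the FK506 libraries were slightly higher. At 60 min its log2 change was −0.13 in FK506 (95% interval −0.29 to 0.03) and −0.04 in ET (95% interval −0.20 to 0.12), with a difference of −0.09 (95% interval −0.31 to 0.14). With raw totals, which move the median gene by up to 0.24 log2, it was called higher in FK506 at 30 min (0.21) and in ET at 30 min (0.29) and 60 min (0.19), the last of these against its direction under TMM. From 10 to 30 min it was then also called higher in FK506 (0.21) and in ET (0.23). From 30 to 60 min in FK506 it was at −0.14 (adjusted p = 0.14), and it was called lower with raw totals (−0.22), without FK506 60 min replicate 1 (−0.24) and without FK506 30 min replicate 2 (−0.23).

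*RCH1*, the gene of the uptake restrainer, had its highest values at 10 min in both treatments. In FK506 *RCH1* had 11.6 and 12.8 CPM at 0 min, 24.0 and 26.2 CPM at 10 min, 16.4 and 14.8 CPM at 30 min, and 15.0 and 11.7 CPM at 60 min. In ET *RCH1* had 13.5 and 15.5 CPM at 0 min, 30.2 and 23.9 CPM at 10 min, 21.7 and 21.9 CPM at 30 min, and 20.3 and 19.0 CPM at 60 min. The FK506 libraries lay below those of ET at 0, 30 and 60 min and overlapped with them at 10 min. In FK506 *RCH1* rose by 1.04 log2 at 10 min (SE 0.15, 2.06-fold, limma adjusted p = 1.9e-05), and it was at 0.36 at 30 min (adjusted p = 0.074, or called at 0.56 with raw totals) and 0.13 at 60 min. In ET it rose by 0.90 log2 at 10 min (SE 0.14, 1.86-fold, limma adjusted p = 4.3e-05), 0.59 log2 at 30 min and 0.44 log2 at 60 min (limma adjusted p = 0.014), and the last call was lost without ET 0 min replicate 1, where the value was 0.31. No difference in change was called, with −0.24 at 30 min (95% interval −0.70 to 0.23) and −0.32 at 60 min (95% interval −0.79 to 0.16), beside only 128 to 337 counts per library for this gene.

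Set side by side, the difference between the treatments was called in none of the 8 genes at 10 min, in 2 at 30 min and in 5 at 60 min. At 10 min none of the 8 genes was called, with 0.0806% of tested genes called in either direction, and none had an unadjusted p under 0.05 in limma or an adjusted p under 0.05 in edgeR or DESeq2. At 30 min 1 gene was higher, *CCH1*, with 17.8% of tested genes higher, and 1 was lower, *PMC1*, with 14.0% lower. At 60 min *CCH1*, *MID1* and *ECM7* were higher, 3 of 8 with a background of 27.9%, and *PMC1* and *VCX1* were lower, 2 of 8 with a background of 24.0%. With raw totals 1 gene was higher, *CCH1*, and 2 were lower. The other plasma membrane gene, *RCH1*, was at −0.32 and the other vacuolar gene, *YVC1*, at −0.09, neither of them called. The median difference of the 8 genes at 60 min was 0.03, beside 0.01 for all tested genes.

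**Figure D2:**
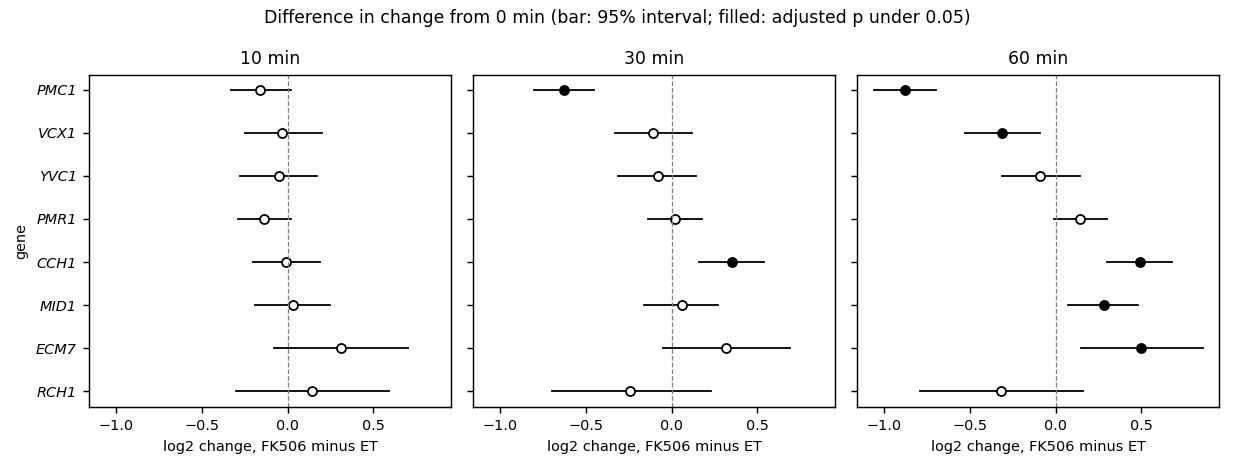
Difference between the log2 change from 0 min in FK506 and that in ET at 10, 30 and 60 min for the 8 genes, with bars for the 95% interval and filled points where the limma adjusted p was under 0.05. *PMC1* lies at −0.63 at 30 min and −0.88 at 60 min, and *CCH1* at 0.35 and 0.49.

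Comparisons of neighbouring times, which were added after the values had been seen, gave the timing. Between 10 and 30 min in FK506, *CCH1* rose by 0.41 log2 (limma adjusted p = 0.00012), *RCH1* fell by 0.68 log2 (limma adjusted p = 0.00086) and *PMC1* fell by 0.20 log2 (limma adjusted p = 0.012), 3 of 8 genes with 36.8% of tested genes called. The call for *PMC1* was lost with raw totals (−0.06) and without FK506 10 min replicate 2 or FK506 30 min replicate 2, with values from −0.28 to −0.13. Between 30 and 60 min in FK506, *PMC1* fell by 0.44 log2 (limma adjusted p = 1.1e-05) and the channel genes *CCH1*, *MID1* and *ECM7* rose by 0.31, 0.27 and 0.38 log2, 4 of 8 genes with 40.8% of tested genes called. The call for *ECM7* was lost in DESeq2, with raw totals (0.30) and without replicate 1 of FK506 at 30 or 60 min, with values from 0.18 to 0.57.

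The same steps in ET are given next, and the number of calls depended on the scaling. With raw totals, 5 genes were higher and 0 lower from 10 to 30 min in ET, beside 5 higher and 1 lower in FK506. From 30 to 60 min raw totals gave 1 higher and 0 lower in ET, beside 2 higher and 2 lower in FK506. Between 10 and 30 min in ET, *PMC1* rose by 0.27 log2 (limma adjusted p = 0.00093) and *VCX1* by 0.24 log2 (limma adjusted p = 0.015), 2 of 8 genes with 40.3% of tested genes called, and the call for *VCX1* was lost without ET 10 min replicate 1 or ET 30 min replicate 2, with values from 0.18 to 0.33. Between 30 and 60 min in ET, *PMC1* fell by 0.18 log2 (limma adjusted p = 0.029), 1 of 8 genes with 20.5% called, and this was lost in DESeq2, with raw totals (−0.15) and without any of the 4 ET libraries of those times, with values from −0.22 to −0.16. *RCH1* was at −0.30 log2 between 10 and 30 min in ET (adjusted p = 0.067), or −0.45 and called without ET 10 min replicate 2. Whether these steps differed between FK506 and ET was not tested.

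Per kb of coding length, so that genes can be compared, the mean level over the 16 libraries was 109 CPM per kb for *VCX1*, 103 for *PMR1* and 80.7 for *PMC1*, above the median gene at 41.5 CPM per kb. *YVC1* was at 49.6 and *MID1* at 45.2 CPM per kb, near the median gene. *CCH1* at 22.6, *ECM7* at 18.1 and *RCH1* at 14.3 CPM per kb were below it. By this mean the genes of calcium removal were thus the most abundant of the set. The least abundant were *CCH1*, *ECM7* and *RCH1*, while *MID1*, which encodes the other subunit of the channel, was not among them. The level varied most for *RCH1*, by 2.60 times between its lowest and highest library, then for *PMC1* (2.15 times) and *ECM7* (1.96 times), and least for *YVC1* (1.25 times).

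The order of the levels depended on time and treatment. In FK506 at 0 min the mean levels were 123 ± 6.90 CPM per kb for *PMR1*, 104 ± 0.0349 for *VCX1*, 61.8 ± 3.07 for *PMC1* and 53.3 ± 0.867 for *MID1* (SD, n = 2 each). In ET at 0 min they were 116 ± 0.422 for *PMR1*, 100 ± 4.31 for *VCX1*, 52.0 ± 1.16 for *PMC1* and 51.6 ± 0.529 CPM per kb for *MID1* (SD, n = 2 each), and the libraries of *PMC1* and *MID1* overlapped. At 60 min *VCX1* (108 ± 10.5) and *PMR1* (106 ± 3.30 CPM per kb) could not be put in order in FK506, where *PMC1* was at 61.3 ± 0.283. In ET at 60 min *VCX1* (129 ± 1.62) was highest, followed by *PMC1* (95.1 ± 2.33) and *PMR1* (90.5 ± 1.23 CPM per kb), with no overlap between these 3 genes. The subunits of the channel differed throughout, with 26.7 and 29.9 CPM per kb for *CCH1* and 52.3 and 53.0 for *MID1* in FK506 at 60 min, and with 20.9 and 22.4 for *CCH1* and 42.6 and 41.6 for *MID1* in ET at 60 min.

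**Figure D3:**
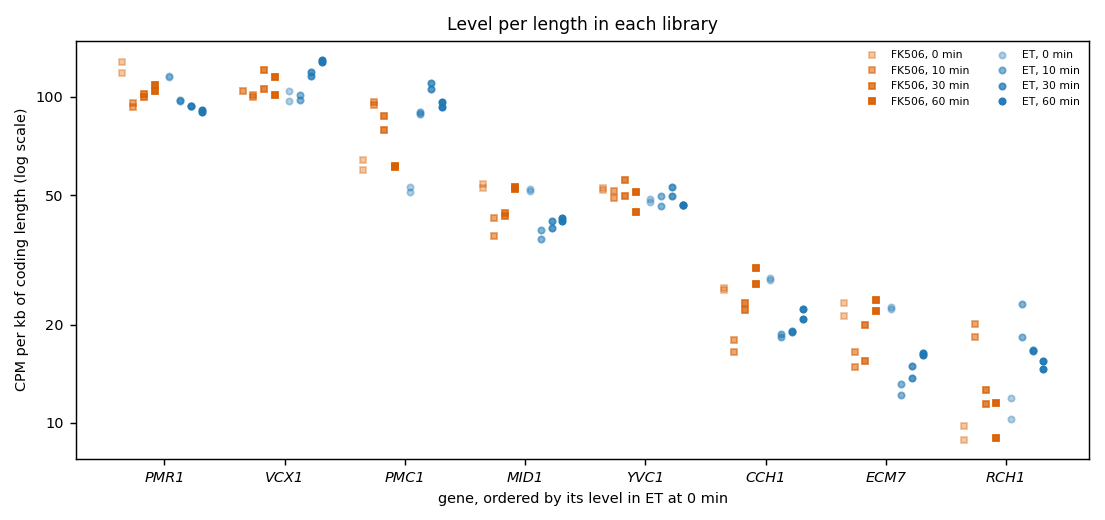
CPM per kb of coding length (log axis) of each gene in each of the 16 libraries, with FK506 as orange squares left of ET as blue circles and darker points for later times. *VCX1*, *PMR1* and *PMC1* lie above the others in nearly all libraries, and *RCH1* runs from 8.89 to 23.1 CPM per kb.

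Across the 16 libraries several members varied together, described here by Pearson's r of log2 CPM, with points that share libraries, time courses and treatments. The genes of the channel had r of 0.90 for *CCH1* with *MID1*, 0.91 for *MID1* with *ECM7* and 0.89 for *CCH1* with *ECM7*. *PMR1*, which is no part of the channel, had r of 0.73 with *CCH1*, 0.82 with *MID1* and 0.77 with *ECM7*, and −0.87 with *PMC1*. *PMC1* and *RCH1* had r of 0.79, and against *CCH1* they had −0.88 and −0.92. *YVC1* had no r beyond 0.23 in size with any other member.

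The genes whose pattern over the 16 libraries was most like that of each member came from many parts of the cell, and likeness here is Pearson's r only. For *PMC1* they were *ATH1*, which encodes the acid trehalase (r = 0.99), *KIN1*, which encodes a protein kinase (0.989), and *AIM17* (0.989). For *PMR1* they were *YSP2*, *PHO86* and *SEC63* (0.958, 0.955 and 0.953), the last encoding a part of the protein translocation machinery of the endoplasmic reticulum. For *VCX1* they were *FMP52*, *STE14* and *VPS60* (0.932, 0.925 and 0.918). For *CCH1* they were *PUF4*, *MOT1* and *SCH9* (0.974, 0.973 and 0.973), and *PUF4*, which encodes an RNA-binding protein, was also among those of *MID1*, after *RRN7* and *MNN9* (0.957, 0.956 and 0.955). For *ECM7* they were *SHO1*, *OST3* and YNL190W (0.956, 0.948 and 0.948), with *SHO1* encoding an osmosensor of the Hog1 pathway. For *RCH1* they were *MDM10*, *RAM1* and *SLM1* (0.961, 0.956 and 0.946), and for *YVC1* *ASI1*, *GUP1* and *PTM1* (0.856, 0.844 and 0.732).

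A list of other genes with a link to calcium movement, not all of which encode calcium transporters, divided in the same comparison. Of the 11 listed genes, 4 were higher and 5 lower in the difference in change at 60 min, beside 27.9% and 24.0% of all tested genes. Their median was −0.19, beside 0.01 for all tested genes, and these values describe the list as drawn up. *GDT1*, which encodes a Golgi calcium and manganese transporter, had 130 and 123 CPM in FK506 at 60 min, against 62.2 and 67.1 CPM in ET, with 149 and 137 CPM in FK506 and 153 and 150 CPM in ET at 0 min. Its difference in change was 1.05 (SE 0.10, limma adjusted p = 1.7e-07), the highest of the list, and *FLC3*, of a family of flavin carrier genes, was next at 0.36 (SE 0.10, adjusted p = 0.0073). *PRM6*, which encodes a potassium transporter induced by pheromone, had 107 and 97.2 CPM in FK506 at 60 min, against 191 and 184 CPM in ET, with 26.0 and 24.5 CPM in FK506 and 25.2 and 22.1 CPM in ET at 0 min. Its difference was −0.98 (SE 0.16, limma adjusted p = 6.5e-05), the lowest, although it rose in both treatments. *FIG1*, which encodes a membrane protein needed for calcium uptake in mating, was at −0.34 (SE 0.14, limma adjusted p = 0.046). It had risen by 2.13 log2 in FK506 and 2.47 log2 in ET. At 30 min the differences had the opposite sign, 0.90 for *FIG1* (SE 0.14, limma adjusted p = 0.00017) and 0.35 for *PRM6*, the latter not called.

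Genes of calcineurin and calmodulin signalling were lower in the difference where they were called. Of 8 genes, none was higher and 4 were lower at 60 min, beside 27.9% and 24.0% of all tested genes, with a median of −0.50 beside 0.01 for all tested genes. *RCN2*, which encodes a regulator of calcineurin, had 66.3 and 62.9 CPM in FK506 at 60 min, against 155 and 131 CPM in ET, and *CMK2*, which encodes a calmodulin-dependent kinase, had 49.9 and 43.0 CPM in FK506, against 92.4 and 84.3 CPM in ET. Their differences in change were −1.26 and −1.20 on the log2 scale, past the limma threshold and larger in size than that of *PMC1*. *CNA1*, encoding a catalytic subunit of calcineurin, was at 0.00 and *CMD1*, encoding calmodulin, at −0.13, and neither was called.

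Among 15 genes known as targets of Crz1, the factor that this strain lacks, 1 was higher and 6 were lower in the same difference, beside the same 27.9% and 24.0%, with a median of −0.18 beside 0.01 for all tested genes. *RCN2* and *CMK2* were again the lowest, since 3 genes are shared with the calcineurin list. *NCW2*, which encodes a cell wall protein, was the highest at 0.59, with 51.5 and 48.6 CPM in FK506 at 60 min, against 34.0 and 31.8 CPM in ET, and *MEP1*, which encodes an ammonium transporter, was at 0.08 and not called. In FK506 9 of the 15 genes were higher and none lower at 60 min than at 0 min, beside 13.1% and 15.7% of all tested genes, and in ET 11 were higher and 1 lower, beside 33.6% and 34.7%.

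**Figure D4:**
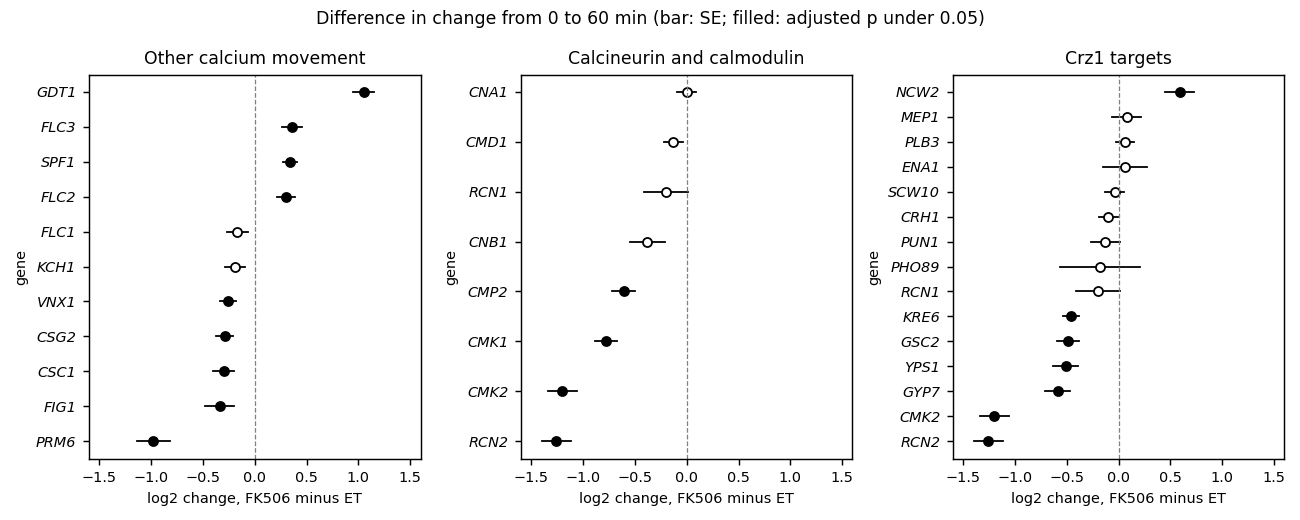
Difference between the log2 change from 0 to 60 min in FK506 and that in ET for 3 lists of genes, with bars for the SE and filled points where the limma adjusted p was under 0.05. *GDT1* lies at 1.05, and *RCN2* at −1.26 and *CMK2* at −1.20 are the lowest of both lists that hold them.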

How the data were processed

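Total RNA was depleted of rRNA and made into strand-marked libraries. Deposited values are raw read counts per gene, made by the authors from reads aligned to R64-1-1 (sacCer3) with TopHat2 2.1.1. The methods name HTSeq and the submitters' processing notes name featureCounts (Subread 1.5.3), and which of these made the table is not stated, nor is the strand setting. Counts were filtered with filterByExpr and fitted with limma 3.58.1 (voom, TMM factors from edgeR 4.0.16, R 4.3.3) over all 16 libraries with group and replicate number, and a correlation of −0.12 within a time course, with p-values adjusted by Benjamini and Hochberg over 6206 genes and a threshold of 0.05. The spread is thus shared by all libraries (7 residual degrees of freedom), and with 2 replicates per group an exact permutation test could not go below p = 0.333. Per the methods of the study, the 2 time courses of each treatment were biological replicates.

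A difference in change is the change from 0 min in FK506 minus that in ET. Alternatives were edgeR, DESeq2 1.42.0, other scalings, filters and block terms, and each library left out. Replicates differed by more than counting noise in every group (chi-square per degree of freedom of 5.39 or more). The 8 genes, the lists and the tests were chosen with earlier results of these data known, and the comparisons of neighbouring times were added after seeing the data. Named were the 8 genes, the 3 most correlated genes of each, and the 2 highest and 2 lowest genes of each list by the difference at 60 min. Promoter windows were read from the R64 genome, and protein sequences were not used here.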

Additional observations from a re-analysis of the deposited data

Results flagged for a closer look

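The change after calcium differed between FK506 and ET, by a test of the difference itself, in 7 results. At 30 min the log2 difference in change was −0.63 for *PMC1* (limma adjusted p = 4.6e-05) and 0.35 for *CCH1* (0.0069). At 60 min it was −0.88 for *PMC1* (1.3e-07), −0.31 for *VCX1* (0.02), 0.49 for *CCH1* (0.00018), 0.28 for *MID1* (0.027) and 0.50 for *ECM7* (0.018). Of all tested genes, 17.8% were called higher and 14.0% lower in this difference at 30 min, and 27.9% and 24.0% at 60 min. The 60 min calls of *VCX1*, *MID1* and *ECM7* were lost in 4, 9 and 5 of the 26 alternatives. With 2 samples in each group, no sample could be examined for standing apart from its group.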

How the results depend on the processing

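Of 112 results for single genes (8 genes in 14 comparisons), 111 kept direction and call in edgeR, 103 in DESeq2 and 73 with raw totals, which move the median gene. Fitting the time course as a fixed term gave no value for FK506 against ET at 0 min and changed none of the other 104 results. *RCH1* and *ECM7* had the fewest counts, with 128 to 337 and 188 to 384 per library.

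Without the replicate block, 111 of 112 results were as before, and the call of *PMC1* at 0 min (0.25) was lost. Deviations between replicates had correlations of −0.05 to 0.19 among times of 1 treatment and of −0.03 to 0.27 between ET and FK506. The methods of the study use a batch term but do not define batch. The replicate number was taken for it here, and no label names the replicates as batches. Members called numbered 0 in place of 1 at 0 min in edgeR, DESeq2, without the block, without the correlation and without the filter. They numbered 4 with raw totals in ET at 60 min, all of them higher, 3 in DESeq2 in FK506 at 30 min, 3 in DESeq2 and 3 with raw totals in the difference at 60 min, 6 in FK506 (5 higher, 1 lower) and 5 in ET (all higher) with raw totals from 10 to 30 min, and 0 in DESeq2 from 30 to 60 min in ET. Leaving out 1 library gave 3 to 5 members in FK506 at 30 min, 0 to 1 in FK506 at 60 min, 2 to 5 in the difference at 60 min, 0 to 1 at 0 min, 1 to 3 from 10 to 30 min and 0 to 1 from 30 to 60 min in ET.

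Signs turned in the following cases. With raw totals the log2 value became 0.05 for *VCX1* and 0.07 for *YVC1* in ET at 10 min, 0.19 for *YVC1* in ET at 60 min, 0.01 for *VCX1* in FK506 at 10 min, 0.02 for *CCH1* in FK506 at 30 min, 0.11 for *PMC1* and 0.10 for *MID1* in FK506 at 60 min, 0.01 for *ECM7* at 0 min, 0.07 for *PMR1* from 10 to 30 min in ET and −0.01 for *PMR1* from 30 to 60 min in FK506. With the 10 most abundant features left out, and with no filter, it became 0.01 for *VCX1* and 0.02 for *YVC1* in ET at 10 min, 0.00 for *PMC1* in FK506 at 60 min and 0.00 for the difference of *PMR1* at 30 min. In DESeq2 it was 0.01 and with RLE scaling 0.00 for *YVC1* in ET at 10 min, and 0.00 in both for the difference of *CCH1* at 10 min.

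Leaving out 1 library gave −0.11 to 0.07 for *VCX1* and −0.09 to 0.08 for *YVC1* in ET at 10 min, −0.07 to 0.02 for *YVC1* in ET at 60 min and −0.07 to 0.11 for *YVC1* in FK506 at 30 min. In FK506 at 60 min it gave −0.06 to 0.04 for *PMC1*, −0.06 to 0.16 for *VCX1*, −0.04 to 0.00 for *MID1*, −0.04 to 0.12 for *ECM7* and 0.00 to 0.26 for *RCH1*. In the difference at 10 min it gave −0.12 to 0.07 for *VCX1*, −0.08 to 0.07 for *CCH1*, −0.06 to 0.13 for *MID1* and −0.13 to 0.03 for *YVC1*, and at 30 min −0.04 to 0.09 for *PMR1*. At 0 min it gave −0.04 to 0.14 for *VCX1* and −0.09 to 0.06 for *ECM7*. In FK506 it gave −0.01 to 0.14 for *YVC1* and −0.03 to 0.37 for *ECM7* from 10 to 30 min, and −0.18 to 0.03 for *VCX1* from 30 to 60 min. The causes of these changes were not tested.

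In ET at 0 min raw totals gave levels of 47.7 CPM per kb for *PMC1*, 106 for *PMR1*, 92.2 for *VCX1*, 25.4 for *CCH1*, 47.4 for *MID1*, 44.1 for *YVC1* and 20.6 for *ECM7*.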
